A study of Homo sapiens with 10 samples.

Results

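The 10 genes described here are NFKB1, NFKB2, RELB and REL, which encode subunits of the transcription factor NF-kB, and NFKBIA, NFKBIE, TNFAIP3, TNFAIP2, BIRC3 and ICAM1, which are well-known transcriptional targets of NF-kB. They were chosen by gene symbol, and each symbol was found among the 57955 genes of all 10 deposited tables. Messenger RNA had been sequenced in 5 BRAF-mutant melanoma cell lines, of which WM983A, WM278 and WM902B came from primary tumours and WM983B and WM1617 from metastases. Each line was sequenced in its original state, sensitive to drug, and as the line derived from it (E+BRes) that is resistant to encorafenib, an inhibitor of mutant BRAF, combined with binimetinib, an inhibitor of the kinase MEK, which BRAF activates. Selection took 3 to 5 months, during which the doses went up from 1 nM, and the resistant lines then stayed in 200 nM, so resistance and the presence of drug cannot be told apart here. Every line gave 1 library in each state, and the 5 lines served as the replicates. WM983A and WM983B were derived from the same patient, as were WM278 and WM1617, so the lines are not all independent, and the p-values measure only the spread between these libraries.

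NF-kB acts as a dimer of subunits that is held in the cytoplasm by inhibitors of the IkB family until a receptor signal leads to their degradation. In the canonical branch the dimers contain RELA or REL with p50, the product of NFKB1, whereas in the non-canonical branch RELB pairs with p52, which is cut from the NFKB2 product p100. NF-kB then induces many of its own brakes, among them NFKBIA, NFKBIE and TNFAIP3, and genes of adhesion and survival such as ICAM1 and BIRC3. In melanoma, NF-kB activity has been associated with cells that express little of MITF, the main transcription factor of the melanocyte lineage.

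The libraries held 13693922 to 18033247 counts, and levels are given as CPM, the counts of a gene scaled to a common library size by edgeR's TMM method. A gene was taken as detected above 3 counts, which is 0.166 to 0.219 CPM in these libraries. All 7 melanocyte markers examined were above 3 counts in every library, but their summed level ranged from 429 to 4500 CPM in the sensitive libraries and from 89.6 to 4428 CPM in the resistant ones. That sum was lower in the resistant library of WM983A (3485 against 89.6 CPM), WM983B (1788 against 138 CPM) and WM902B (2904 against 231 CPM). It was higher in WM278 (429 against 923 CPM) and similar in WM1617 (4500 against 4428 CPM). In WM278 the higher sum came mostly from the marker S100B (92.8 against 626 CPM), while SOX10 was at 319 against 274 CPM. The summed level of the leukocyte markers was 8.59 to 79.9 CPM in the sensitive and 4.72 to 69.6 CPM in the resistant libraries. Most of it came from CD68, a lysosomal protein gene at 72 to 1157 counts in all 10 libraries, while PTPRC and CD3E, which define leukocytes and T cells, reached at most 5 counts. CD14 reached 81 counts in resistant WM983B, LYZ 54 in sensitive WM983B and ITGAM 42 in resistant WM983A. The sum of the endothelial markers was 0.928 to 53.6 CPM and 0.23 to 5.23 CPM, with its highest value in sensitive WM278, where KDR held 850 counts. CDH5, which defines endothelial cells, was at 3 counts or fewer in every library. PECAM1 reached 30 counts in sensitive WM902B, VWF 30 in resistant WM902B and TEK 12 in resistant WM983B. The library labelled resistant WM983A stood apart from the others. It held 13 counts of the melanocyte lineage gene PAX3, against 335 to 735 counts in the other 9 libraries, and 8445 counts of the epithelial keratin gene KRT7, against 22 to 367 counts. Its log2 levels correlated most closely across genes with those of sensitive WM902B (r = 0.845), with r = 0.827 to sensitive WM983A, whereas the other 4 resistant libraries each correlated best with their own sensitive counterpart. Correlations between the 10 genes are given with and without it, and several fold changes also without line WM983A. Other fold changes, among them those of many genes outside the 10, are given only with it.

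Across the 5 lines none of the 10 genes separated resistant from sensitive libraries past the test. In edgeR's quasi-likelihood test, 0 of the 10 genes had an adjusted p of at most 0.05 with a 2-fold change, as did 0% of all 17287 genes tested, and all 10 had passed the filter on low counts. At an unadjusted p of at most 0.05, 0 of the 10 genes passed, beside 7.14% of all genes. DESeq2 gave 2 such genes, NFKBIA and TNFAIP2, and the share of all genes is not given for it. The median log2 fold change of the 10 genes was 0.11, against 0.03 over all genes tested. By exact two-sided permutation of the libraries, 1 test per gene, the unadjusted p ranged from 0.167 for NFKBIA to 0.802 for NFKB2, where 5 against 5 libraries can give 0.00794 at the smallest and 6.15% of all genes had a p of at most 0.05. The groups overlapped for all 10 genes, while 0.445% of all genes tested had every resistant library above every sensitive one and 0.318% below. The ratio of resistant to sensitive differed between the lines, as the plot of levels in each library shows. TNFAIP3, for example, was 9.57-fold lower in WM983A and 2.14-fold higher in WM902B, and ICAM1 was 1.60-fold lower in WM902B and 2.12-fold higher in WM278.

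**Figure D1:**
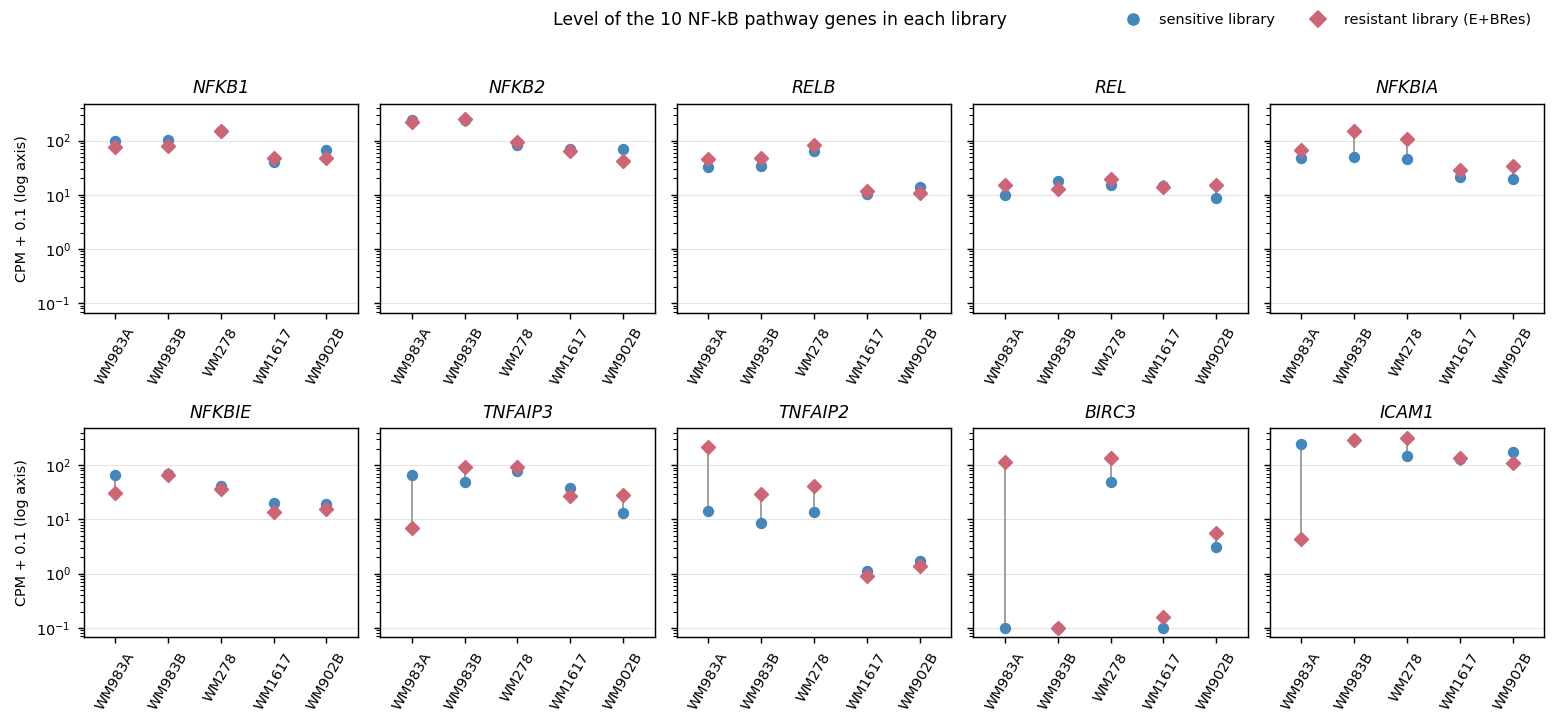
Level of each gene as CPM with 0.1 added, on a log axis, in the sensitive (circle) and resistant (diamond) library of each line, 1 library per point. The subunit genes in the upper row kept similar levels in both states, while BIRC3, TNFAIP2, TNFAIP3 and ICAM1 span a wide range, with their largest differences in WM983A.

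The subunit genes NFKB1, NFKB2 and RELB differed more between lines than between states, but REL did not. NFKB1 was at 96.9, 101, 152, 40.7 and 65.4 CPM in sensitive WM983A, WM983B, WM278, WM1617 and WM902B, and at 77.4, 80.7, 147, 47.1 and 48.2 CPM in the resistant libraries, in the same order of lines, which is used for all genes below. It was lower in 4 of 5 lines, with log2 ratios of resistant to sensitive down to -0.44, and its log2 fold change was -0.19 (SE 0.405, adjusted p = 0.953). WM278, the line with the lowest MITF level among the sensitive libraries (10.7 CPM, against 264 to 627 CPM in the others), had the highest NFKB1 level in both states. Within WM983A, WM983B and WM902B, however, MITF and NFKB1 were both lower in the resistant library (MITF at 34.3, 36.9 and 220 CPM, against 385, 264 and 402 CPM). In WM278 and WM1617 the states differed in opposite directions for MITF and NFKB1, although NFKB1 in WM278 differed within counting error. A tie between the levels of these genes was not tested.

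NFKB2 was measured at 238, 237, 80.8, 70.7 and 70.6 CPM in the sensitive libraries and at 216, 250, 94.9, 65.2 and 42.2 CPM in the resistant ones. WM983A and WM983B therefore had the highest levels in both states, and no line differed by 2-fold between its states. The log2 fold change was -0.06 (SE 0.571, adjusted p = 0.990).

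RELB, the partner of the NFKB2 product, was at 32.9, 33.1, 62.7, 10.4 and 13.9 CPM in the sensitive libraries and at 46.3, 48.0, 83.3, 11.9 and 10.6 CPM in the resistant ones. Both states of WM278 had more RELB than any other library, and both states of WM1617 and WM902B less. RELB was higher in the resistant library of 4 lines, by 0.19 to 0.53 on the log2 scale, and lower in WM902B (-0.39). In WM1617 the counting interval of the ratio included 0 (-0.12 to 0.51). Over the 5 lines the log2 fold change of RELB was 0.39 (SE 0.644, adjusted p = 0.935).

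REL, which encodes c-Rel, had the narrowest range of the 10 genes over the libraries. It was at 9.87, 17.8, 14.7, 14.4 and 8.76 CPM in the sensitive libraries and at 15.2, 12.4, 19.5, 13.6 and 14.7 CPM in the resistant ones. It was higher in the resistant library of the 3 lines of primary origin and lower in the pair of metastatic origin, by no more than 0.74 on the log2 scale. In WM1617 the counting interval of the ratio included 0 (-0.35 to 0.20). The log2 fold change of REL was 0.20 (SE 0.266, adjusted p = 0.910). RELA, which encodes the main canonical subunit and is not among the 10 genes, was at 66.2 to 108 CPM in the sensitive and 72.3 to 94.8 CPM in the resistant libraries.

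Promoter sequence is shown for NFKBIA, BIRC3, TNFAIP2 and ICAM1, the genes whose level was at least 2-fold higher in resistant than in sensitive WM278. Each run is the 250 bases before a transcript start in RefSeq's GRCh38.p14 annotation, 5′ to 3′ on the strand of the gene. Capitals mark every match to a kB consensus, a form of the DNA motif that NF-kB dimers bind. The pattern was GGGRNNYYCC on either strand, where R is A or G, Y is C or T and N is any base. The window of NFKBIA is chr14:35404750-35404999 (minus strand), that of BIRC3 chr11:102317234-102317483 (plus strand), that of TNFAIP2 chr14:103123211-103123460 (plus strand) and that of ICAM1 chr19:10270870-10271119 (plus strand).
NFKBIA: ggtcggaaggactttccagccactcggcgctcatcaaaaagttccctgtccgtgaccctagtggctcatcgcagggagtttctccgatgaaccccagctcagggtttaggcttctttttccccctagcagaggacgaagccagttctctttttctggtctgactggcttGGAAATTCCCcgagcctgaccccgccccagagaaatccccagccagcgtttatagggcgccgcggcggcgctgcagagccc
BIRC3: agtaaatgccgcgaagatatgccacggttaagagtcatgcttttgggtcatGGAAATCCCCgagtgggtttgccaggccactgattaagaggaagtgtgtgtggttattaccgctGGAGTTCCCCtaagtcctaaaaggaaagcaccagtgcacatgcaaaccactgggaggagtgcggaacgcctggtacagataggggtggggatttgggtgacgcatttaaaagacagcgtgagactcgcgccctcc
TNFAIP2: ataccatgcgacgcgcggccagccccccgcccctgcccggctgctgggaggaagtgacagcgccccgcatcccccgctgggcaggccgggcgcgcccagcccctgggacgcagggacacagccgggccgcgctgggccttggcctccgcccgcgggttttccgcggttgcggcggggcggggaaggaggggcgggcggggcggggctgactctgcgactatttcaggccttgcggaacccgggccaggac
ICAM1: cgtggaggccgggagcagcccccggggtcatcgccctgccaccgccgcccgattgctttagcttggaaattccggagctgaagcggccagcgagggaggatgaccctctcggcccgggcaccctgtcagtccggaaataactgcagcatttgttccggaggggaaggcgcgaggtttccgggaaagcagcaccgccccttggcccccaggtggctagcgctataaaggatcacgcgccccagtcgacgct
The NFKBIA window held 1 match, from position -81 to -72 counted from the start, and the BIRC3 window 2, from -199 to -190 and from -135 to -126, read on either strand. The TNFAIP2 and ICAM1 windows held none, which says only that no run in them fits this pattern in full. Sites that depart from the pattern were not searched for, and the ICAM1 window holds tggaaattcc, which fits it except for the leading t. Of the 10 genes, 8 had a window in the table, and 6 of these 8 (NFKB1, NFKB2, REL, NFKBIA, TNFAIP3 and BIRC3) held at least 1 match. Some genes have several windows, and counted by window the matches were in 7 of 11 windows of these genes, beside 9.96% of all 35116 windows. No binding of a factor was measured in these libraries.

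Of the genes of IkB inhibitors, NFKBIA was higher in the resistant library of every line, and NFKBIE was lower in every line. NFKBIA encodes IkB-alpha, which NF-kB induces quickly and which carries NF-kB back out of the nucleus. Its level was 48.3, 50.6, 45.5, 21.4 and 19.7 CPM in the sensitive libraries and 67.1, 147, 108, 28.7 and 33.4 CPM in the resistant ones. The resistant level was 2.89-fold higher in WM983B, 2.38-fold in WM278, 1.69-fold in WM902B, 1.39-fold in WM983A and 1.34-fold in WM1617. All 5 counting intervals lay above 0, the lowest being 0.21 to 0.63 on the log2 scale in WM1617 (95%, exact, covering counting error only). Of all genes tested, 5.77% were higher in all 5 lines. Because the lines themselves differ, the groups overlap: resistant WM1617 and WM902B lay below sensitive WM983A, WM983B and WM278.

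In edgeR's test the log2 fold change of NFKBIA was 1.05 (SE 0.489, unadjusted p = 0.0561, adjusted p = 0.703). With cell line entered as a replicate block, which sets each resistant library against the sensitive one of its line, it was 0.89 (SE 0.223, unadjusted p = 0.00558, adjusted p = 0.462), and NFKBIA was the single gene of the 10 with an unadjusted p of at most 0.05, beside 10.7% of all genes in that fit. Without WM983A the blocked value was 0.99 (unadjusted p = 0.00554, adjusted p = 0.422).

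NFKBIE encodes IkB-epsilon, an inhibitor that responds more slowly. It was at 65.8, 67.5, 41.7, 20.2 and 18.8 CPM in the sensitive libraries and at 30.5, 66.5, 35.7, 13.4 and 15.6 CPM in the resistant ones. The ratio of the states ran from -0.02 in WM983B, within its counting interval of -0.15 to 0.11, to -1.11 in WM983A on the log2 scale. Of all genes, 5.3% were lower in all 5 lines. Its log2 fold change was -0.40 (SE 0.519, adjusted p = 0.908) and -0.18 (SE 0.617) without WM983A.

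TNFAIP3 encodes A20, an enzyme that edits ubiquitin chains and ends signalling from the TNF receptor. It was at 66.0, 50.0, 77.2, 37.5 and 13.0 CPM in the sensitive libraries and at 6.84, 92.6, 92.7, 26.6 and 27.8 CPM in the resistant ones. The lines went in different directions: it was 9.57-fold lower in WM983A and 1.41-fold lower in WM1617, but 2.14-fold higher in WM902B, 1.85-fold in WM983B and 1.20-fold in WM278. The log2 fold change was 0.02 (SE 0.666, adjusted p = 0.998) and 0.43 (SE 0.619, adjusted p = 0.965) without WM983A, and it was negative in 6 of the alternatives to the fit tried.

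TNFAIP2, a gene named for its induction by TNF, whose product takes part in forming membrane protrusions, was higher in 3 resistant lines and low in both states of the others. It was at 14.4, 8.61, 13.6, 1.00 and 1.60 CPM in the sensitive libraries and at 217, 29.6, 41.1, 0.802 and 1.29 CPM in the resistant ones. The resistant level was 15.0-fold higher in WM983A, 3.42-fold in WM983B and 3.01-fold in WM278, whereas in WM1617 and WM902B the libraries held 14 to 24 counts and the counting intervals of the ratio included 0. Its log2 fold change was 2.88 (SE 1.36, unadjusted p = 0.0584, adjusted p = 0.703). Without WM983A it was 1.55 (SE 1.31, adjusted p = 0.931).

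ICAM1, the adhesion molecule that leukocyte integrins bind, was expressed strongly in all libraries except that labelled resistant WM983A. It was at 244, 298, 151, 133 and 174 CPM in the sensitive libraries and at 4.23, 286, 319, 137 and 108 CPM in the resistant ones. The resistant level was 56.8-fold lower in WM983A and 1.60-fold lower in WM902B, and 2.12-fold higher in WM278. In WM983B and WM1617 the counting intervals of the log2 ratio included 0 (-0.12 to 0.0018 and -0.04 to 0.14). Its log2 fold change was -0.22 (SE 0.751, adjusted p = 0.972) and turned to 0.17 (SE 0.425, adjusted p = 0.982) without WM983A.

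BIRC3 encodes cIAP2, a ubiquitin ligase of the TNF receptor complex that protects cells from death. It was the most uneven of the 10 genes: sensitive WM983A, WM983B and WM1617 held 0 counts each, sensitive WM278 797 counts (50.0 CPM) and sensitive WM902B 44 counts (2.94 CPM). The resistant libraries held 1476 counts in WM983A (113 CPM), 0 in WM983B, 2098 in WM278 (134 CPM), 1 in WM1617 and 82 in WM902B (5.55 CPM). Resistant WM278 was thus 2.68-fold and resistant WM902B 1.87-fold above the sensitive library. The library labelled resistant WM983A was at least 574.5-fold higher than sensitive WM983A, against a floor of 3 counts. The fitted log2 fold change in edgeR's test, 2.25 (SE 2.21, adjusted p = 0.870), depends on how libraries at 0 are treated. Without WM983A it was 1.395 (SE 2.47, adjusted p = 0.976) in the same test. With the replicate block and without WM983A it was 1.21 (SE 0.350, unadjusted p = 0.0184, adjusted p = 0.422), in a fit in which 11.7% of all genes had an unadjusted p of at most 0.05. Because WM983B and WM1617 held 0 or 1 counts, that value rests mostly on WM278 and WM902B.

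The genes next to BIRC3 were read in the same way, because its level in WM983A ran from 0 to among the highest. BIRC3 lies on chromosome 11 from 102317484 to 102339403 (GRCh38, GENCODE release 44). BIRC2, which encodes the related ligase cIAP1 and starts 29.7 kb downstream, held 0 counts in sensitive WM983A and 1056 counts in the library labelled resistant WM983A. TMEM123, 78.8 kb away, held 9 and 4891 counts in that order, DCUN1D5, 733 kb away, 0 and 751 counts, and DYNC2H1, 792 kb away, 1 and 235 counts. In WM983B these 4 genes held 0 to 2 counts in the sensitive and 4 to 48 counts in the resistant library. WM278, WM1617 and WM902B expressed all 4 in both states, at 34.1 CPM or more. YAP1, which starts 207 kb on the other side of BIRC3, was at 62.2 to 227 CPM in the sensitive and 124 to 198 CPM in the resistant libraries. BIRC3 and these 4 genes were thus at or near 0 in sensitive WM983A and sensitive WM983B, low but in part above the detection limit in resistant WM983B, and expressed in the library labelled resistant WM983A. The genes are not all adjacent: metalloproteinase genes lie between TMEM123 and DCUN1D5, and they differed. MMP12 held 0 counts in all 10 libraries. MMP8 held 0 counts in sensitive WM983A and sensitive WM983B, and 53 and 4 counts in their resistant libraries. In the other lines MMP8 held 72 to 3016 counts, except in resistant WM902B, at 0. DNA was not measured, and whether that library descends from the sensitive line of its label was not tested. In WM1617, by contrast, BIRC3 was at 0 and 1 counts while BIRC2 held 667 and 935 counts.

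**Figure D2:**
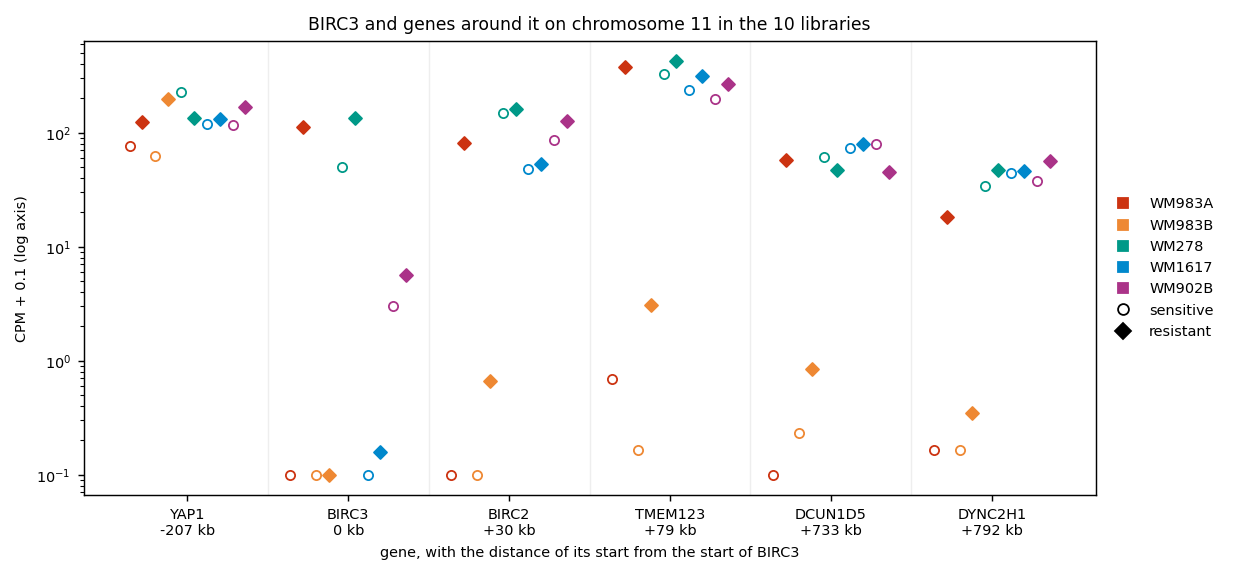
CPM with 0.1 added, on a log axis, of BIRC3 and of 5 genes around it, ordered by the distance of their start from that of BIRC3, in the sensitive (open circle) and resistant (diamond) library of each line. From BIRC3 to DYNC2H1 the sensitive WM983A and both WM983B libraries lie below the others except for BIRC3 in WM1617, at most at 3.01 CPM (TMEM123 in resistant WM983B), while YAP1 is expressed in all 10 libraries and the resistant WM983A library expresses all 6 genes.

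Within single lines, where 1 library per state allows a size but no test, the number of the 10 genes that differed by at least 2-fold was 5 for WM983A and 4 for WM278, against 2 for WM983B, 1 for WM902B and 0 for WM1617. The order depends on the limit: at 1.5-fold there were 6 in WM983A and in WM902B, 4 in WM278, 3 in WM983B and 2 in WM1617. Of those 2, 1 was BIRC3, at 0 and 1 counts. No share of all genes past 1.5-fold is given, so these counts show only that the order changes with the limit. In WM983A, TNFAIP2 and BIRC3 were at least 2-fold higher and NFKBIE, TNFAIP3 and ICAM1 at least 2-fold lower, and 16.9% and 19.4% of all genes tested passed those limits. In WM983B, NFKBIA and TNFAIP2 were at least 2-fold higher (16.2% of all genes) and no gene was lower (11.2%). In WM278, NFKBIA, TNFAIP2, BIRC3 and ICAM1 were at least 2-fold higher (12.1%) and none lower (7%). There 8 of the 10 genes had a log2 ratio above 0, while the median over all genes tested was 0.0037. In WM902B, TNFAIP3 alone was at least 2-fold higher (15.4%) and none lower (12%). In WM1617 no gene passed in either direction, beside 2.83% of all genes higher and 3.8% lower.

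The median log2 ratio of the 10 genes was highest in WM278 (0.41), followed by WM983A (0.17), WM983B (0.04), WM1617 (-0.01) and WM902B (-0.29), and the median over all genes tested was within 0.03 of 0 in each line. The melanocyte marker sum was higher in resistant than in sensitive WM278, mostly through S100B. It was similar in both states of WM1617 and lower in the other 3 resistant libraries. MITF itself was at 385, 264, 10.7, 627 and 402 CPM in the sensitive libraries and at 34.3, 36.9, 14.5, 528 and 220 CPM in the resistant ones. The receptor tyrosine kinase gene AXL, often high where MITF is low, was at 215, 246, 733, 8.07 and 129 CPM and at 642, 214, 285, 9.74 and 265 CPM. WM1617 had the highest MITF and the lowest AXL in both states, and its states were the most alike over all genes (r = 0.984). Of the markers, NGFR, a receptor gene of neural crest cells, passed without adjustment (log2 fold change -5.93, SE 1.73, unadjusted p = 0.00589, adjusted p = 0.630) and was lower in 3 of 5 lines. Its unadjusted p was 0.0278 without WM983A and 0.198 with the replicate block. The melanocyte genes SOX10 (-1.37), PMEL (-1.42) and TYR (-1.51), as well as EGFR (1.34), AXL (0.09), LYZ (-1.55), ITGAM (1.21) and CD68 (0.15), did not pass, although with the block TYR (unadjusted p = 0.0292) and LYZ (0.0384) did. The part of these markers in the results for the 10 genes was not tested.

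**Figure D3:**
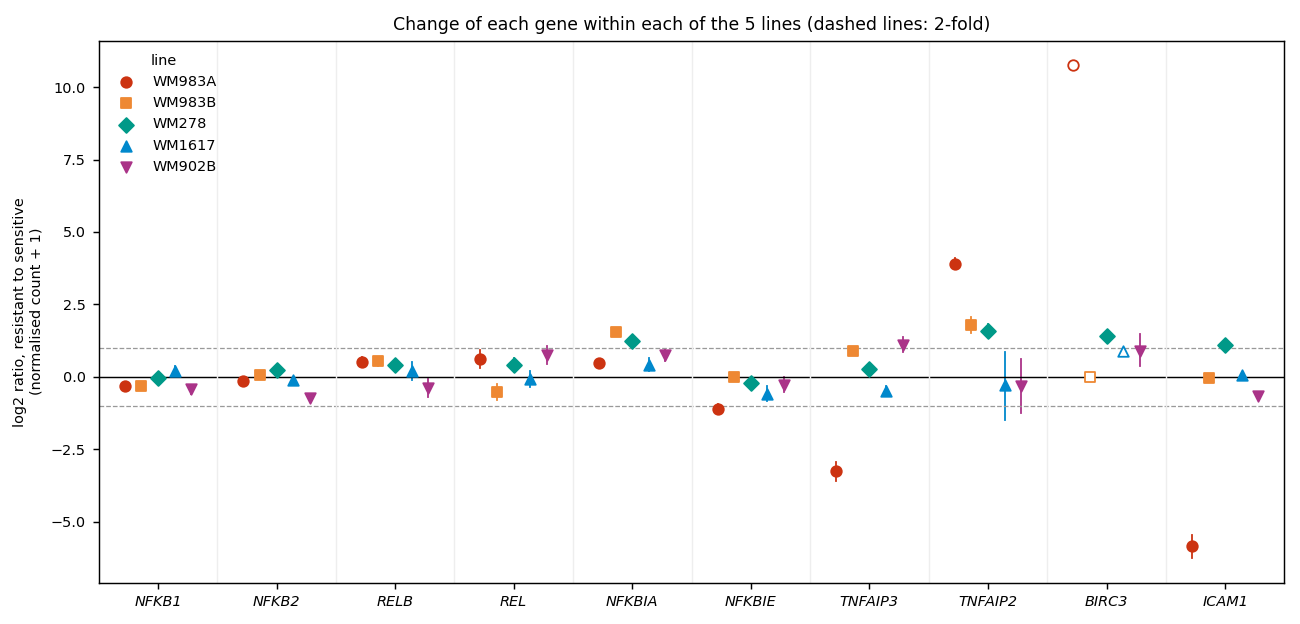
Log2 ratio, resistant over sensitive, of the normalised counts with 1 added within each line for each gene, with 95% counting intervals as bars. Open symbols mark ratios in which a library was at or under 3 counts; dashed lines mark 2-fold. All 5 lines lie above 0 for NFKBIA, whereas TNFAIP3, TNFAIP2 and ICAM1 have lines on both sides of 0.

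Per kilobase of exon, the scale on which levels of different genes can be compared, ICAM1 had the highest median of the 10 genes in both states, with 50.4 CPM per kb over the sensitive libraries (38.5 to 86.4) and 39.8 over the resistant ones (1.23 to 92.6). In the sensitive libraries NFKBIE (median 16.1 CPM per kb, 7.28 to 26.1), NFKB2 (14.5, 12.6 to 42.6), NFKBIA (13.4, 5.81 to 14.9) and RELB (10.98, 3.46 to 20.9) followed, and their ranges overlapped. TNFAIP3 (7.77), NFKB1 (6.18), TNFAIP2 (1.70), REL (0.838) and BIRC3 (0) came after them. In the resistant libraries NFKBIA stood second, with a median of 19.8 CPM per kb (8.46 to 43.2), and NFKBIE, with 11.8 (5.19 to 25.8), was behind NFKB2 and RELB, although all their ranges overlapped. The exon lengths are unions over all annotated transcripts, up to 17.1 kb for REL, so they understate the level of genes with long, rarely used exons.

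How alike the levels of the 10 genes were over the libraries depended on the library labelled resistant WM983A. Over all 10 libraries NFKB1 and RELB were the most alike (Pearson's r = 0.917 between log2 levels) and BIRC3 and ICAM1 the least (r = -0.47). Without that library, over 9, these values were 0.945 and 0.06. ICAM1 had a median r of 0.0064 with the other genes over 10 libraries and of 0.74 over 9, and TNFAIP2 one of 0.61 and 0.82. BIRC3 (0.32 and 0.30) and REL (0.29 and 0.29) followed the others little either way.

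The mean standardised level of the 10 genes was highest in resistant WM278 (0.97), at 0.13 to 0.61 in the other libraries of WM278, WM983A and WM983B, and at -0.80 to -0.65 in both states of WM1617 and WM902B. Over the 9 libraries it was again highest in resistant WM278 (1.12) and below 0 only in WM1617 and WM902B. The genes outside the lists whose log2 levels followed this mean most closely over 10 libraries were TP53INP1 (r = 0.982), INTU (0.978), ZNF266 (0.976), ZNF136 (0.971) and ARAP1-AS1 (0.969). Over 9 libraries TP53INP1 (0.985) and INTU (0.992) remained among the closest 5, and the others were at 0.976 to 0.983. These correlations are descriptions over libraries that share lines.

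The rest of the pathway was read from 5 lists with 84 genes in all, of which 71 passed the filter on low counts. In edgeR's test 0 of them passed with adjustment. At an unadjusted p of at most 0.05 with a 2-fold change, 9 were higher in the resistant libraries, beside 3.53% of all genes tested, and 2 were lower, beside 0.885%. The median log2 fold change of the 71 genes was 0.26, against 0.03 over all genes. The lists were chosen with earlier results of these data known, so these counts describe the lists and do not test the pathway. Without WM983A all 11 passed again and no other, 9 higher beside 2.71% of all genes in that fit and 2 lower beside 0.51%. With the replicate block 12 genes passed p and fold, 8 higher and 4 lower, of which 8 were among the 11. In that fit 10.7% of all genes had an unadjusted p of at most 0.05 at any fold, against 7.14% without the block. The share of all genes past both limits is not given for it.

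Among 5 other subunit and IkB genes, BCL3, a nuclear IkB protein that acts with p50 and p52 dimers, was the single one that passed without adjustment. It was at 17.5, 21.7, 33.5, 13.4 and 21.4 CPM in the sensitive libraries and at 52.6, 88.7, 55.4, 15.8 and 51.4 CPM in the resistant ones. BCL3 was thus higher in 5 of 5 lines, with a log2 fold change of 1.30 (SE 0.411, unadjusted p = 0.00963, adjusted p = 0.630). NFKBIZ (log2 fold change -0.05) and NFKBID (0.36), which encode further nuclear IkB proteins, and RELA (0.07) did not pass. With the block the unadjusted p of BCL3 was 0.00539, and without WM983A it was 0.0390.

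Among 22 kinases and adaptors, MAP3K8 passed without adjustment (log2 fold change 2.18, SE 0.654, unadjusted p = 0.00701, adjusted p = 0.630). It encodes the kinase TPL2, which is bound by the NFKB1 product p105 and can activate MEK. MAP3K8 was at 1.05, 1.06, 0.816, 5.57 and 0.936 CPM in the sensitive libraries and at 7.45, 6.53, 12.5, 3.09 and 13.3 CPM in the resistant ones, so it was higher in 4 of 5 lines and lower in WM1617. Without WM983A its log2 fold change was 2.08 (unadjusted p = 0.0275). BIRC2, described above, and the adaptor gene TRAF1 (log2 fold change -0.96, SE 1.09) did not pass. The values of IKBKG, a subunit of the IkB kinase complex, are uncertain because the pseudogene IKBKGP1 shares its sequence.

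Among 22 receptors and ligands, 14 passed the filter and the interleukin-1 receptor gene IL1R1 passed without adjustment (log2 fold change 3.56, SE 1.13, unadjusted p = 0.00972, adjusted p = 0.630). IL1R1 was at 4.41, 0.795, 24.2, 6.86 and 8.49 CPM in the sensitive libraries and at 40.6, 19.4, 57.4, 11.6 and 400 CPM in the resistant ones, which was higher in 5 of 5 lines. IL1B, a ligand of that receptor, was at 741 CPM in sensitive and 119 CPM in resistant WM278 and at 16.5 CPM or less elsewhere (log2 fold change -2.56, SE 2.28). TLR4, a receptor for bacterial lipopolysaccharide, was lower in 5 of 5 lines (log2 fold change -2.05, SE 0.977, unadjusted p = 0.0611). TNF, LTA and LTB are listed at 0 in all 10 libraries, but so are TUBB, CLIC1 and TAP1, genes of the same part of chromosome 6 that cells commonly express, so nothing was read from these zeros.

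Of 12 other negative regulators, 3 passed without adjustment, all higher in the resistant libraries. ZFP36, whose product destabilises cytokine mRNAs, was at 10.8, 6.69, 17.0, 16.0 and 13.8 CPM in the sensitive libraries and at 79.0, 28.7, 57.7, 10.2 and 177 CPM in the resistant ones (log2 fold change 2.45, SE 0.647, unadjusted p = 0.00323, adjusted p = 0.630). NLRC5 (1.60, SE 0.717, unadjusted p = 0.0488) and TNFRSF11B, the decoy receptor osteoprotegerin (5.27, SE 1.96, unadjusted p = 0.0216), passed in this fit but were higher in 3 of 5 lines. Neither passed with the replicate block (0.82, unadjusted p = 0.238, and 1.71, unadjusted p = 0.370). TNFRSF11B was at 297 CPM in resistant WM902B and at 14.3 CPM or less in all other libraries. ZC3H12A, which encodes the ribonuclease Regnase-1, was higher in 4 of 5 lines. It did not pass without the block (log2 fold change 1.16, SE 0.565, unadjusted p = 0.0654) and did with it (1.00, unadjusted p = 0.0157).

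Of 25 other NF-kB target genes, 20 passed the filter, and 3 were higher and 2 lower without adjustment. VCAM1, an adhesion molecule like ICAM1, was at 2.57, 1.26, 0.188, 0 and 0 CPM in the sensitive libraries and at 0.23, 272, 10.8, 0.229 and 81.8 CPM in the resistant ones (log2 fold change 6.49, SE 2.06, unadjusted p = 0.00967). The cytokine gene IL6 was at 0.134 to 2.95 CPM in the sensitive libraries and at 1.69, 96.8, 55.1, 0.0573 and 35.6 CPM in the resistant ones (4.87, SE 1.53, unadjusted p = 0.00926). SOD2, the mitochondrial superoxide dismutase, was at 77.0 to 129 CPM in the sensitive libraries and at 1484 CPM in resistant WM278, against 83.9 to 169 CPM in the other resistant ones (2.11, SE 0.786, unadjusted p = 0.0221). With the replicate block VCAM1 and IL6 passed again and SOD2 did not (1.08, unadjusted p = 0.0780). VCAM1 and IL6 were above 10 CPM in resistant WM983B, WM278 and WM902B and below 2 CPM in resistant WM983A and WM1617.

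The chemokine gene CCL20 (log2 fold change -2.84, SE 1.04, unadjusted p = 0.0198) and CD83, a surface protein of activated immune cells (-1.52, SE 0.442, unadjusted p = 0.00593), were lower in 4 of 5 lines. BCL2A1, an anti-apoptotic gene that MITF is also known to induce, was lower in 5 of 5 lines and did not pass (-1.80, SE 0.877, unadjusted p = 0.0657). With the replicate block BCL2A1 (unadjusted p = 0.0242), the chemokine gene CXCL8 (-2.20, 0.0320) and CXCL2 (2.09, 0.0238) passed as well. In edgeR's test without the block, the adjusted p of VCAM1, IL6, SOD2, CCL20, CD83 and BCL2A1 was 0.630 or above. With the block, 0 of the 20 targets tested passed with adjustment. Within lines, of the 20 targets tested, 3 were at least 2-fold higher and 12 lower in the library labelled resistant WM983A, beside 16.9% and 19.4% of all genes. In WM983B 6 were higher and 5 lower (16.2% and 11.2%), and WM278 had 7 higher and 3 lower (12.1% and 7%). WM1617 had 2 and 1 (2.83% and 3.8%), and WM902B 8 and 7 (15.4% and 12%).

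**Figure D4:**
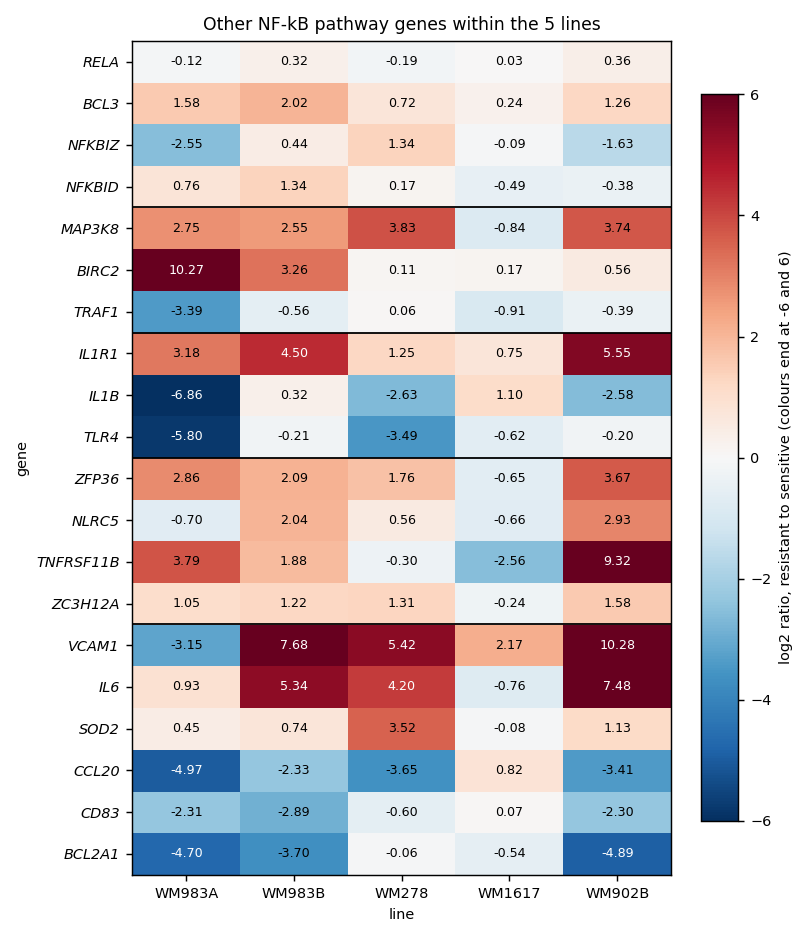
Log2 ratio of resistant over sensitive (normalised counts with 1 added) in each line for RELA and for the other pathway genes named in the text, with red for higher and blue for lower in the resistant library and lines between the lists. Ratios against a library at 0 counts, such as BIRC2 in WM983A, depend on the added count. Most cells of WM1617 are pale, and BCL3 and IL1R1 are above 0 in every line.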

How the data were processed

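The 10 genes, the pathway lists and the tests were chosen with earlier results of these data known. The authors aligned reads to GRCh38 with HISAT2 and quantified 57955 Ensembl genes in StrandNGS; the annotation, strand setting and tool versions are not given in the sources used here. The deposited raw values are expected counts, in which reads can count in fractions. The deposited log2 normalized values, DESeq-scaled ratios to the sensitive library of each line, were used only to recover 455 raw values of sensitive WM983B that had been turned into dates, none of them of the 10 genes.

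The expected counts were rounded and tested in R 4.3.3 with edgeR 4.0.16 (filterByExpr, TMM, glmQLFit and glmQLFTest, two-sided, Benjamini-Hochberg adjustment over 17287 genes), 5 resistant against 5 sensitive libraries. The resistant line and the sensitive line of each name pair the samples, and cell line was entered as a replicate block in an alternative fit. Across genes, deviations from the group means correlated within lines with r = 0.35 to 0.67 in WM902B, WM983B, WM1617 and WM278 and r = -0.08 in WM983A. DESeq2 1.42.0 and limma 3.58.1, other scalings and filters, and the omission of each line were further alternatives; 2 settings without WM983A libraries, and correlations without its resistant library, were added after seeing the data. Ratios within lines were taken on normalised counts with 1 added, with exact 95% counting intervals. Exact permutation tests used log2(CPM + 1). In a simulation that took its spread between lines from the real libraries, 200 genes were changed, 100 of them 4-fold and the rest 2-fold. The edgeR fit found 28 of the 200, of which 27 were changed 4-fold, with 1 false call in 16898 genes. Its 0 calls in the real data therefore do not show that no gene changed.

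Named were the 10 genes, RELA, MITF, AXL, the genes of each pathway or marker list past an unadjusted p of 0.05 with a 2-fold change, the 3 of each list with the largest mean ratio, and the 5 genes in no list most like the mean of the 10. The genes around BIRC3 and PAX3, KRT7, CXCL2, CXCL8, TUBB, CLIC1, TAP1 and IKBKGP1 were chosen after their values were seen. Genes without a promoter in the RefSeq table are RELB and NFKBIE. Python 3.11.15 with pandas 2.3.3, scipy 1.17.1 and matplotlib 3.10.9 was used for the rest.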

Additional observations from a re-analysis of the deposited data

Results flagged for a closer look

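ICAM1 in the library labelled resistant WM983A lay far below the other 4 resistant libraries: its gap to the nearest of them was 0.739 of the whole range of log2 levels, above Dixon's critical value of 0.71 for 5 samples, at 4.23 CPM. Chance flags about 1 in 20 groups, and 20 groups of 5 libraries were examined. The log2 ratio of REL was above 0 in all 3 lines of primary origin and below 0 in both of metastatic origin, with means that differed by 0.885, and this difference was not tested. In WM1617 the counting interval of the ratio included 0 (-0.35 to 0.20). The ratio in WM983A (0.62) comes from the library that stood apart from the others.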

How the results depend on the processing

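In every alternative run, 0 of the 10 genes had an adjusted p of at most 0.05. Without adjustment, the number with a p of at most 0.05, 0 in the main fit, was 1 with the replicate block (NFKBIA), 1 with no filter on low counts (TNFAIP2), and 2 with DESeq2's Wald test, with a filter of at least 10 counts in every library (both NFKBIA and TNFAIP2) and, with the block, without line WM983A (NFKBIA and BIRC3). Leaving out each line in turn gave 0 to 2, the 2 without WM1617, and 7 to 19 other pathway genes past p and fold, against 11. For most of these runs no share of all genes is given, so the counts show only how the calls moved. Of 127 log2 fold changes of the 10 genes under alternatives, 117 kept their direction. Those that did not were small, and none passed. TNFAIP3 was at -0.16 with the block, -0.28 with limma-voom, -0.0049 with no filter and -0.32 to 0.43 with a line left out; ICAM1 at -0.64 to 0.17 with a line left out, 0.08 without the library labelled resistant WM983A and 0.092 with the block and without line WM983A; and NFKB2 at -0.31 to 0.0075 with a line or that library left out. In WM1617, 1 gene passed 2-fold with 0.5 added (BIRC3, at 0 and 1 counts), and 2 passed 1.5-fold; in WM902B, 6 passed 1.5-fold against 1 at 2-fold. The replicate block changed no other call of the 10 genes. Fold changes of genes at 0 counts, BIRC3 above all, are limited by depth and by the count added. The pass of BIRC3 with the block and without line WM983A rests mostly on WM278 and WM902B.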
